A study of Mus musculus with 8 samples.

Results

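The 31 genes described here mark lymphocytes and natural killer cells: 14 T cell genes, 8 natural killer (NK) and cytotoxic genes, 8 B lineage genes without immunoglobulin chains, and Ptprc, which all leukocytes carry. Members were the probes whose gene name on the array is one of those 31, which gave 46 of the 41174 noncontrol probes, or 31 of 27962 distinct gene names. Oviduct RNA came from 8 adult female CD-1 mice on gestation day 2 (GD2), 4 given corn oil as newborns (control) and 4 given genistein (Gen), a plant estrogen, at 50 mg/kg/day in corn oil from postnatal day (PND) 1 to PND5. At 6–8 weeks of age every mouse, controls included, was superovulated and mated, and both oviducts of 1 mouse, taken 48 hr after hCG with the embryos removed, made 1 sample on 1 single-dye (Cy3) Agilent array. The design asks what neonatal Gen leaves changed in the adult oviduct, and the lymphocyte genes are read here within that contrast. The signals are those of whole organs, so a gene marks a cell type only as far as other oviduct cells do not use it.

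T cells sense antigen through a receptor whose signal runs through the Cd3 chains, the kinases Lck and Zap70 and the adaptor Lat, with Cd4 and the Cd8 chains as coreceptors. NK cells and cytotoxic T cells kill by releasing perforin (Prf1) and granzymes, under the control of lectin-like receptors such as Klrd1 and Klrk1. B cells signal through Cd79a and Cd79b, and the antibody-secreting plasma cells that they form lose Ms4a1 and gain Tnfrsf17, the receptor that keeps them alive. In the female reproductive tract such cells lie in the epithelium and stroma, and their number and kind follow the steroid hormones.

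Signals are processed intensities scaled so that the 75th percentile of every array was at the same level, differences are Gen-treated minus control on the log2 scale (1 is a 2-fold change), and errors are SEs from limma with n = 4 in each group. A call is an adjusted p from limma under 0.05. Between 25391 and 28949 probes per array were well above background in controls and between 29539 and 31486 in Gen-treated mice. The 4 control arrays shared 1 slide and the 4 Gen arrays another, so the treatment and the slide cannot be told apart. Probes that were above background on no array (7855) had a median scaled signal of 6.56–14.8 in controls, against 3.34–5.19 on the Gen arrays, and such probes fed the adjustment of all p-values, so calls below are given again with dim probes left out (28966 probes tested) where the probe stayed in that test. The paper compared Gen-treated mice with control littermates, but the labels do not tie mice to litters. The p-values measure the spread between these mice only.

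Most lymphocyte and NK genes gave higher signals in Gen-treated mice than in controls, and the B lineage had the largest median difference. Of the 24 genes that were well above background on all 8 arrays, 22 were higher in Gen-treated mice, with a median difference of 0.61, beside a median of -0.01 over all 24948 probes detected to the same degree. Limma called 7 of the 31 genes higher, against 2.17% of all probes called higher, and 2 lower, against 14% of all probes called lower. Those called lower were Cd8b1, by a probe that the array design places on chromosome 5, away from Cd8a, and Gzmk, above background on no array. Among the 24 well-detected genes 5 were called higher, against 1.92% of well-detected probes, and in 8 of them every Gen array lay above every control array, as in 5.1% of well-detected probes. With dim probes left out, 1 of the 29 genes still tested was called higher, Tnfrsf17, against 0.604% of the probes, and 13 were higher at an unadjusted p under 0.05. The share of all probes at that unadjusted p is not given here. Counts at an unadjusted p, here and below, therefore have no background to be read against. In whole-organ RNA, more cells of a type and more RNA per cell cannot be told apart.

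**Figure D1:**
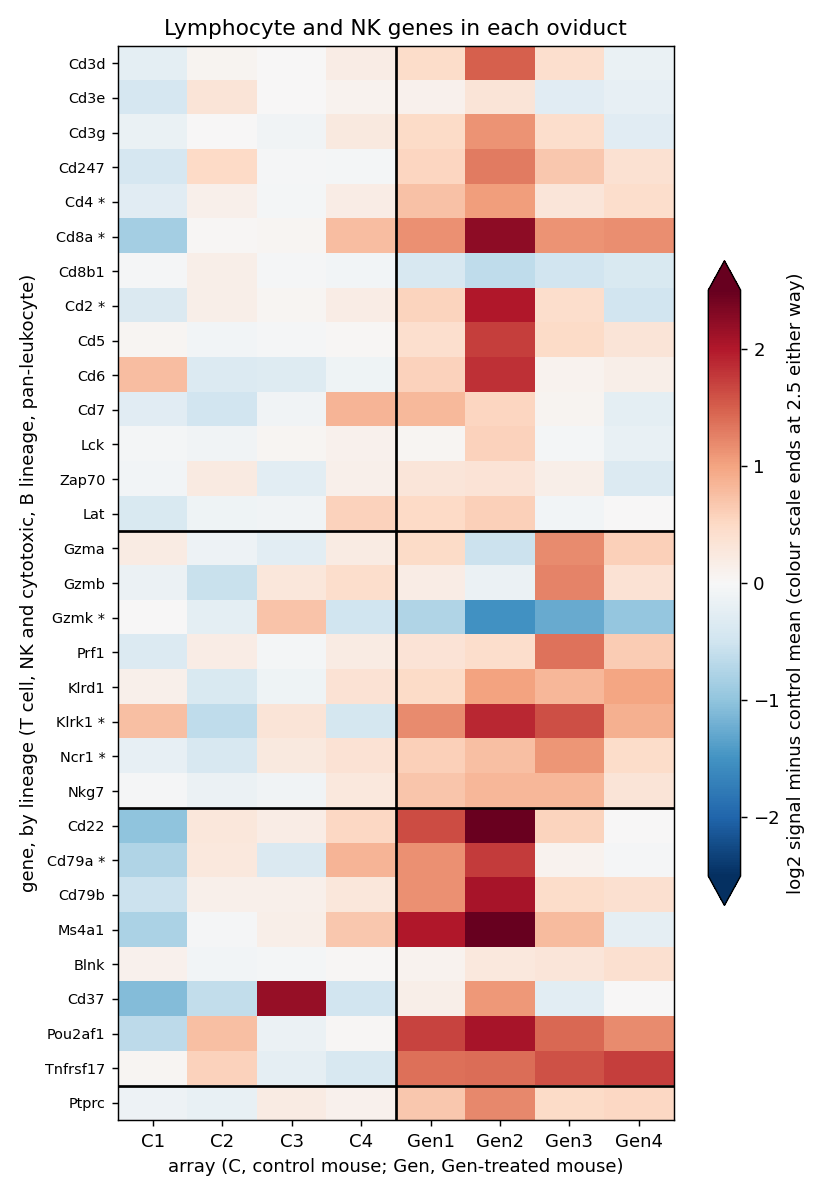
The log2 signal of each of the 31 genes on each of the 8 arrays minus the mean of the 4 controls (rows, genes in lineage blocks; columns, mice; red, above the control mean), with an asterisk for genes not well above background on all 8 arrays. The Gen columns are mostly red, mouse Gen 2 most strongly in the T cell and B lineage blocks, and the blue row Cd8b1 is the probe placed on chromosome 5.

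These counts depended on single mice. Leaving out control 1 or Gen-treated mouse 1, 2 or 3 left limma calling 0 of the 31 genes higher (10–14 were higher at an unadjusted p under 0.05), and leaving out control 2, 3 or 4 or Gen-treated mouse 4 left 2, 4, 6 and 5. With any 1 mouse left out, between 20 and 23 of the 24 well-detected genes were higher in Gen-treated mice.

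Ptprc encodes the leukocyte common antigen, a phosphatase on the surface of every white blood cell. Its signal was 2280, 2201, 2881 and 2687 in controls 1–4 and 3956, 5775, 3482 and 3554 in Gen-treated mice 1–4 (probe at chr1:137950290-137950349, mouse build mm7). All 4 Gen-treated mice lay above all 4 controls, and Gen-treated mouse 2 was the highest by a wide margin. The difference was 0.72 ± 0.19, a 1.64-fold change, with a limma adjusted p = 0.0367, or 0.0969 with dim probes left out (range over the alternatives, 0.0308–0.212). Ptprc was spotted 10 times on each array, and the SD between its spots, 0.03–0.07 on the log2 scale, was well under the SD between mice, 0.19 in controls and 0.34 in Gen-treated mice. A second well-detected Ptprc probe gave 142, 172, 245 and 193 in controls 1–4 and 268, 498, 292 and 227 in Gen-treated mice 1–4, a difference of 0.73 that was not called (limma adjusted p = 0.114), with Gen-treated mouse 4 below control 3.

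The T cell genes had the smallest median difference of the 3 lineages, and for 10 of the 14 the groups overlapped. In all, 11 were well above background on all 8 arrays, 9 of those were higher in Gen-treated mice, and their median difference was 0.29. Limma called 1 T cell gene higher (Cd8a) and 1 lower (Cd8b1, by the probe placed on chromosome 5). With dim probes left out it called 0 higher, and 4 were higher at an unadjusted p under 0.05.

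The signaling core of the T cell receptor had small differences that limma did not call. Lck, the kinase that starts the receptor's signal, gave 713, 696, 764 and 795 in controls 1–4 and 763, 1110, 717 and 652 in Gen-treated mice 1–4, and Zap70, the kinase that follows it, gave 575, 709, 503 and 661 in controls 1–4 and 752, 771, 667 and 481 in Gen-treated mice 1–4. Their differences were 0.10 ± 0.18 and 0.11 ± 0.19, with limma adjusted p-values of 0.763 and 0.74, and the adaptor Lat differed by 0.26 ± 0.25. For all of them the groups overlapped.

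The Cd3 chains, which carry the signal of the receptor into the cell, were not called by their brightest probes. Cd3e gave 81.5, 137, 109.7 and 116 in controls 1–4 and 118, 137, 90.2 and 95.3 in Gen-treated mice 1–4, a difference of -0.01 ± 0.20 with overlapping groups. Cd3d gave 116, 143, 137 and 155 in controls 1–4 and 188, 388, 184 and 122 in Gen-treated mice 1–4, and Cd3g gave 137, 155, 144 and 182 in controls 1–4 and 214, 335, 208 and 126 in Gen-treated mice 1–4. Both were highest in Gen-treated mouse 2, while mouse 4 lay above control 1 alone for Cd3d and below every control for Cd3g, with differences of 0.55 ± 0.32 and 0.43 ± 0.28 (limma adjusted p = 0.312 and 0.355). The 3 genes are neighbors on chromosome 9, the probes of these values lying within chr9:44907978-44933575 (mm7). A second Cd3e probe (chr9:44938246-44938305, mm7), above background on no array, was called lower (-1.06 ± 0.29, limma adjusted p = 0.0393) at 6.65–15.1 in controls against 3.54–6.22 in Gen-treated mice, in the range of the dim probes, and was not tested with dim probes left out. Cd247, the zeta chain of the receptor, gave 124, 234, 164 and 161 in controls 1–4 and 240.3, 407, 265 and 217 in Gen-treated mice 1–4, a difference of 0.72 ± 0.25 (limma adjusted p = 0.1), in which control 2 alone lay within the Gen range. Another Cd247 probe, above background on no array, was called lower (limma adjusted p = 0.0247), and one more, above background on 1 control and 3 Gen arrays, had a lower mean signal in Gen-treated mice and was not called.

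Cd4, the coreceptor of helper T cells, was low. Its signal was 34.7, 46.0, 41.0 and 48.2 in controls 1–4 and 69.9, 87.1, 52.3 and 57.4 in Gen-treated mice 1–4, well above background in 2 of the 4 controls and in all 4 Gen-treated mice. Every Gen-treated mouse lay above every control, and the difference of 0.63 ± 0.19 was not called (limma adjusted p = 0.0592). A dimmer Cd4 probe, above background in 0 controls and 4 Gen-treated mice, gave 8.34, 7.11, 13.7 and 9.21 in controls 1–4 and 33.6, 55.0, 18.2 and 24.3 in Gen-treated mice 1–4, also without overlap, and was called higher (limma adjusted p = 0.0236, or 0.0614 with dim probes left out). The 10 spots of the brighter probe differed with an SD of 0.16–0.28 on an array, about as much as the mice did (0.21 and 0.33).

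Cd8a, the alpha chain of the coreceptor of cytotoxic T cells, was above background in no control and in all 4 Gen-treated mice. The detection limit was lower on the Gen arrays. For the second probe below, control 4 at 29.2 was not detected while Gen-treated mouse 4 at 28.5 was. It gave 10.5, 19.5, 19.8 and 32.5 in controls 1–4 and 42.2, 90.3, 41.6 and 42.8 in Gen-treated mice 1–4, with no overlap and Gen-treated mouse 2 far above the other 3. As the control level is only a bound, Cd8a was at least 1.24-fold higher in Gen-treated mice (limma adjusted p = 0.0393, or 0.103 with dim probes left out; range over the alternatives, 0.0169–0.851). That bound was 1.47-fold without scaling between arrays and 1.12-fold with quantile normalization, and with normexp background correction no bound could be given. A second Cd8a probe with 10 spots gave 16.7, 15.9, 16.0 and 29.2 in controls 1–4 and 36.4, 48.6, 34.3 and 28.5 in Gen-treated mice 1–4, called higher in the main fit (limma adjusted p = 0.0336, or 0.0946 with dim probes left out) with control 4 inside the Gen range. Another Cd8a probe, above background on 1 array, was lower in Gen-treated mice and not called (limma adjusted p = 0.302), with control 3 at 263 and the other 7 arrays at 4.40–31.5.

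Cd8b1, the beta chain of the same coreceptor, had 2 probes that disagreed in direction, and the start of each is shown because the array design places them on different chromosomes. The first 30 of the 60 bases of each, in lower case throughout since no motif is marked, are these:
Cd8b1 probe at chr6:71355005-71355063 (mm7): ggaccctggagaagactgcaaatcctcaca
Cd8b1 probe at chr5:114364254-114364313 (mm7): gccatgatccagggaatgaaaagaaatttg

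The chromosome 5 probe was the brighter of these and stands for the gene under the rule used here, and whether it measures Cd8b1 was not tested. It gave 2850, 3220, 2867 and 2793 in controls 1–4 and 2219, 1885, 2088 and 2244 in Gen-treated mice 1–4, every Gen-treated mouse below every control. That probe was called lower, with a difference of -0.48 ± 0.11 (limma adjusted p = 0.0246, or 0.067 with dim probes left out). The chromosome 6 probe, next to Cd8a in the design, gave 55.2, 48.2, 119 and 218 in controls 1–4 and 228, 516, 34.9 and 388 in Gen-treated mice 1–4, a difference of 1.13 ± 0.88 with overlapping groups (limma adjusted p = 0.453). Gen-treated mouse 3 was the lowest of all 8 by that probe, while mice 2 and 4 were the highest. With the chromosome 6 probe in place of the other, a choice made after the values were seen, 23 of the 24 well-detected genes were higher and the T cell median was 0.43.

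Cd5, a surface receptor that dampens T cell signaling, gave 293, 268, 276 and 289 in controls 1–4 and 374, 927, 391 and 352 in Gen-treated mice 1–4. The 4 controls were tight, within an SD of 0.06 (n = 4), all Gen-treated mice lay above them, and mouse 2 stood apart from the other 3. The difference was 0.73 ± 0.30 and was not called (limma adjusted p = 0.154), and without Gen-treated mouse 2 it was 0.40. Cd6, a relative of Cd5 that binds adhesion molecules, gave 475, 221, 225 and 261 in controls 1–4 and 419, 999, 299 and 309 in Gen-treated mice 1–4. It too was highest in Gen-treated mouse 2, and control 1 lay above the other 3 Gen-treated mice. A dimmer Cd6 probe, above background in 0 controls and 4 Gen-treated mice, had no overlap. Its difference of 0.50 ± 0.15 was not called (limma adjusted p = 0.0635). Cd2, an adhesion receptor, differed by 0.63 ± 0.46, and Cd7, an early T and NK cell antigen, by 0.29 ± 0.34. Neither was called, and the groups overlapped in both.

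**Figure D2:**
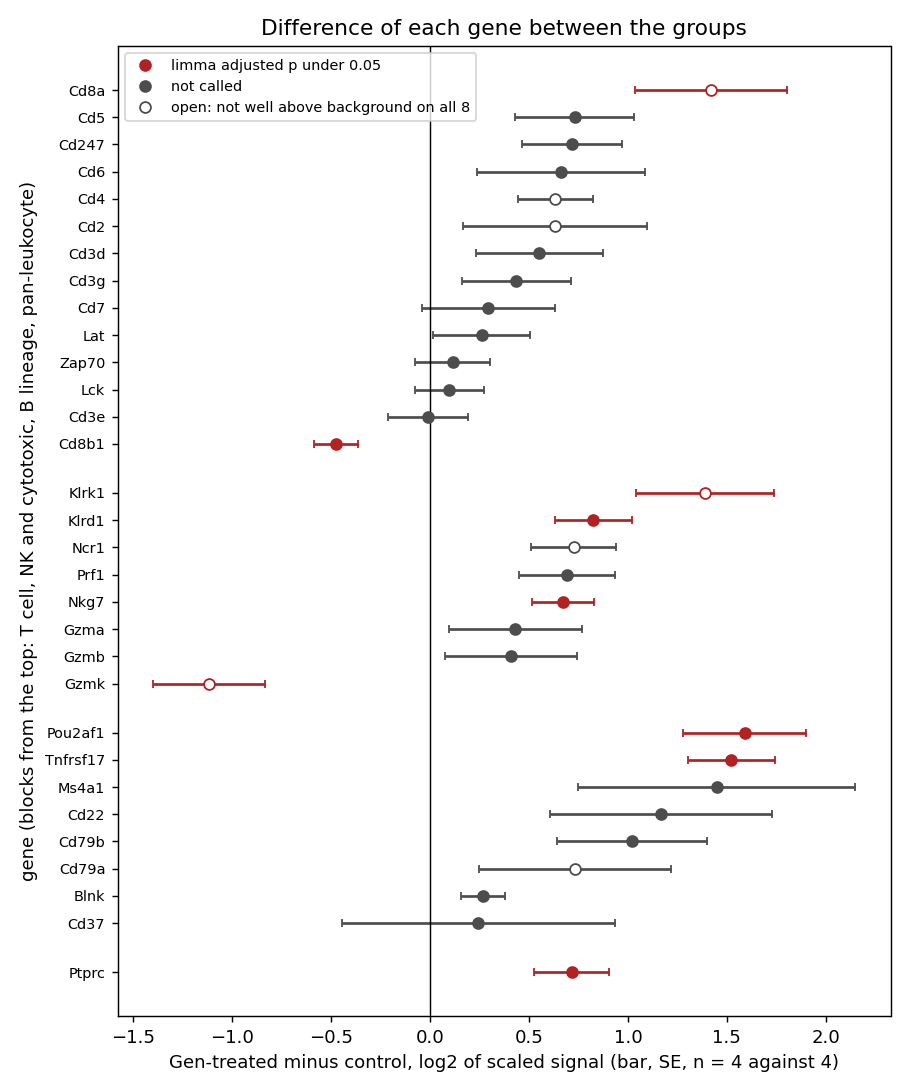
Gen-treated minus control on the log2 scale for each of the 31 genes (points, limma estimates; bars, SE; n = 4 against 4), in blocks for T cell, NK and cytotoxic, B lineage and pan-leukocyte genes, red where the limma adjusted p was under 0.05 and open where the gene was not well above background on all 8 arrays. Most points lie right of 0, and Cd8b1 (-0.48, by the probe placed on chromosome 5) and Gzmk (-1.12) are the called genes left of it.

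Among the NK and cytotoxic genes the receptors and Nkg7 were higher in all 4 Gen-treated mice, and the granzymes varied from mouse to mouse. Of the 8 genes, 5 were well above background on all 8 arrays, all 5 were higher in Gen-treated mice, and their median difference was 0.67. Limma called 3 higher (Klrd1, Klrk1 and Nkg7), and 0 with dim probes left out, where 4 had an unadjusted p under 0.05.

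Klrd1 is the common chain of the lectin-like receptors by which NK cells read MHC class I molecules. It gave 253, 178, 215 and 298 in controls 1–4 and 322, 469, 414 and 457 in Gen-treated mice 1–4 (probe at chr6:129621685-129621744, mm7). The lowest Gen-treated mouse lay just above the highest control. The difference was 0.83 ± 0.20, or 1.77-fold, with SDs of 0.32 (n = 4) and 0.25 (n = 4) in the 2 groups (limma adjusted p = 0.0251, or 0.0753 with dim probes left out; range over the alternatives, 0.0154–0.18). Klrk1, the activating receptor for stress ligands, lies near it on the same chromosome (probe at chr6:129635158-129635217, mm7) and was dim, well above background in 0 controls and 3 Gen-treated mice at 24.0, 9.24, 17.9 and 10.6 in controls 1–4 and 32.3, 53.1, 43.6 and 26.7 in Gen-treated mice 1–4. The groups did not overlap and limma called it higher (adjusted p = 0.0293), but no fold is given, since the bound on the control level is not under the Gen level, and the probe was not tested with dim probes left out. Ncr1, the receptor that defines NK cells in the mouse, gave 53.0, 46.1, 71.9 and 78.3 in controls 1–4 and 92.4, 103, 130.2 and 83.4 in Gen-treated mice 1–4, above background on all arrays but 1 control. Its groups did not overlap, and the difference of 0.73 ± 0.22 was not called (limma adjusted p = 0.0566).

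Nkg7, a granule membrane protein of NK and cytotoxic T cells, gave 306, 280.1, 291 and 374 in controls 1–4 and 503, 549.7, 556 and 390.0 in Gen-treated mice 1–4. All Gen-treated mice were above all controls, though mouse 4 barely so. Its difference was 0.67 ± 0.16, 1.59-fold (limma adjusted p = 0.025, or 0.0733 with dim probes left out; range over the alternatives, 0.0167–0.156). A second Nkg7 probe, 158, 133, 162 and 189.6 in controls 1–4 and 258, 291, 330.4 and 199 in Gen-treated mice 1–4, repeated that order of the groups without overlap, with a difference of 0.74 ± 0.19 (limma adjusted p = 0.0301, or 0.0875 with dim probes left out). Both probes are to the same transcript and are not independent evidence.

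The killing proteins themselves peaked in 1 mouse. Prf1, which forms pores in the target cell, gave 67.5, 96.8, 82.8 and 98.4 in controls 1–4 and 109, 115, 218 and 132 in Gen-treated mice 1–4, highest in Gen-treated mouse 3 and without overlap, a difference of 0.69 ± 0.24 that was not called (limma adjusted p = 0.0989). Gzma, a granzyme with trypsin-like activity, gave 297, 235, 214 and 297 in controls 1–4 and 360.5, 178, 582 and 392 in Gen-treated mice 1–4. Gzmb, the granzyme that starts apoptosis, gave 75.2, 56.9, 102 and 113 in controls 1–4 and 94.8, 75.6, 198 and 108 in Gen-treated mice 1–4. Both granzymes were likewise highest in Gen-treated mouse 3, while Gzma was lowest of all 8 in Gen-treated mouse 2, the mouse with the highest T cell and B lineage signals. Their differences of 0.43 ± 0.34 and 0.41 ± 0.33 were not called, and were 0.18 and 0.13 without mouse 3. Gzmk was well above background on no array, at 5.93–13.7 in controls against 2.93–4.98 in Gen-treated mice, and the lower call (limma adjusted p = 0.03) is of signals in the range of the dim probes named above.

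Promoter sequence was available for 7 of the 8 NK and cytotoxic genes and for 23 of the 31 genes in all, from RefSeq on the assembly GRCm38.p6. Of 7 motifs searched on both strands of the 250 bases before each start site, TGTGGT, the core bound by Runx factors, was found in 6 of the 7 NK and cytotoxic genes (Gzma, Gzmb, Klrk1, Ncr1, Nkg7 and Prf1), in 2 of 9 T cell genes, in 0 of 6 B lineage genes and in 14.0% of all 32851 promoters of that length. A gene was counted where any of its listed start sites matched (Lck and Zap70 at 1 site only), and counted in that way 15.9% of all 27025 genes with a promoter held it. The promoters of Nkg7, Prf1 and Ncr1 are shown, the genes among those 6 whose groups did not overlap and whose signals were above background in both groups, 5′ to 3′ and ending 1 base before the start site, with capitals for any of the 7 motifs (TGTGGT reads ACCACA on the other strand):
Nkg7 (chr7:43436888-43437137, plus strand): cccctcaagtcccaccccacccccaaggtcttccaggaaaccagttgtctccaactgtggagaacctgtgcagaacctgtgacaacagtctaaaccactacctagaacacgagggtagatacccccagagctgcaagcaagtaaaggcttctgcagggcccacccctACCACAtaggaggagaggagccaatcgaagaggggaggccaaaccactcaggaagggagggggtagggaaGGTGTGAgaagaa
Prf1 (chr10:61297586-61297835, plus strand): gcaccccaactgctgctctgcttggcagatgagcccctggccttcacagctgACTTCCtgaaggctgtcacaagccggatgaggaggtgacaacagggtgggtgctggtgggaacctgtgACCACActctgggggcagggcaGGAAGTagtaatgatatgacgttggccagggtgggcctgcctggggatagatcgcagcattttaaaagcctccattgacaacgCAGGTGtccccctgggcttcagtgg
Ncr1 (chr7:4337465-4337714, plus strand): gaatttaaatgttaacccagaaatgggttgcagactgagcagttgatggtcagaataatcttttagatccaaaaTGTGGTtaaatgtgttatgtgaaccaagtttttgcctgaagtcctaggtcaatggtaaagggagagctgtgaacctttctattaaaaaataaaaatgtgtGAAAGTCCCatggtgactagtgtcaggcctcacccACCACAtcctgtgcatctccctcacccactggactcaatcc

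In Nkg7 the motif began 83 bases before the start site, in Prf1 130, and in Ncr1, whose first listed start is shown, 176 and 41. The other capitals are TCACACC, the T-box core (in Nkg7, and in 3.33% of all promoters), GGAAGT, an Ets core (in Prf1, 19.7%), CAGGTG, an E-box (in Prf1, 17.2%), and GGGACTTTC, a kappa B site (in Ncr1, 0.289%). Among the T cell genes with a promoter, 6 of 9 held GGAAGT and 6 of 9 CAGGTG. The B lineage genes held them in 3 of 6 and 4 of 6, and the NK and cytotoxic genes in 2 of 7 each. Counted by gene, 22.2% and 19.4% of all genes with a promoter held them. The octamer ATGCAAAT was found in 1 of the 6 B lineage genes, Blnk (1.6% of all promoters), and TGACGTCA in Zap70 (1.55%). The letters of GGAAGT and CAGGTG do not overlap in the promoters shown. A match is a description of the sequence, and no binding was measured in these mice.

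The B lineage held the largest median difference of the 3 lineages, 1.17 over the 7 genes that were well above background on all 8 arrays, and all 7 were higher in Gen-treated mice. Limma called 2 of the 8 higher, Pou2af1 and Tnfrsf17, and 1, Tnfrsf17, with dim probes left out. Cd79a, Cd79b, Cd22 and Ms4a1, genes of mature B cells, were highest in Gen-treated mouse 2 and next highest in mouse 1, while Tnfrsf17 was high in all 4 Gen-treated mice. That grouping was made after the values were seen and carries no test.

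Tnfrsf17, the receptor for survival factors of plasma cells, gave 152, 219, 124 and 110.3 in controls 1–4 and 379.9, 382, 439 and 486 in Gen-treated mice 1–4. The lowest Gen-treated mouse was well above the highest control, and the spread was small, with SDs of 0.43 (n = 4) and 0.17 (n = 4) in controls and Gen-treated mice. The difference was 1.52 ± 0.22, 2.87-fold (limma adjusted p = 0.0236, or 0.0274 with dim probes left out; range over the alternatives, 0.0122–0.0941). With 1 mouse left out it lay between 1.39 and 1.72, and its call was lost without control 1 or Gen-treated mouse 1, 2 or 3 (limma adjusted p = 0.059, 0.063, 0.068 and 0.06). It was called in 14 of 22 settings, the reported one included, the most of the 31 genes.

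Pou2af1, the coactivator of the octamer factors that B cells need to form germinal centers and plasma cells, gave 427, 1127, 606 and 686 in controls 1–4 and 2154, 2786, 1819 and 1510 in Gen-treated mice 1–4 (probe at chr9:51218585-51218644, mm7). Again no Gen-treated mouse overlapped a control, with mice 1 and 2 the highest and control 2 above the other controls. The difference was 1.59 ± 0.31, 3.01-fold, the largest among the well-detected genes (limma adjusted p = 0.0236, or 0.0518 with dim probes left out; range over the alternatives, 0.0138–0.149). With 1 mouse left out it lay between 1.38 and 1.84, and its call was lost without the same 4 mice as that of Tnfrsf17.

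The promoters of these 2 genes are shown because they led the B lineage, and neither held any of the 7 motifs, so no letter is in capitals:
Tnfrsf17 (chr16:11313559-11313808, plus strand, GRCm38.p6): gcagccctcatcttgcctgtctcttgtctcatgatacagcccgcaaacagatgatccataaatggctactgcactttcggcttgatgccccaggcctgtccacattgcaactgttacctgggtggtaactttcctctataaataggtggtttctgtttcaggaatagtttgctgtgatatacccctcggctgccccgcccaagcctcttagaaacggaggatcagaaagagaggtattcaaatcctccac
Pou2af1 (chr9:51213440-51213689, plus strand, GRCm38.p6): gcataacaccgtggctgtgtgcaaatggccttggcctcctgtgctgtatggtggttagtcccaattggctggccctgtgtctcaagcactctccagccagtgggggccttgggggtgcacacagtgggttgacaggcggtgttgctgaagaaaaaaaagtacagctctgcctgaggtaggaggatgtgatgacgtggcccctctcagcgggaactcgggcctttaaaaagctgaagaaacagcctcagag

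Cd79b, the signaling chain of the B cell receptor, gave 988, 1579, 1560 and 1750 in controls 1–4 and 3167, 5999, 1985 and 1904 in Gen-treated mice 1–4. Its groups did not overlap, but mice 3 and 4 lay only a little above control 4, and the difference of 1.02 ± 0.38 was not called (limma adjusted p = 0.119). Cd79a, its partner, was well above background in 1 control and all 4 Gen-treated mice, at 15.1, 30.3, 19.7 and 45.9 in controls 1–4 and 55.8, 84.8, 26.8 and 24.8 in Gen-treated mice 1–4, and overlapped. Ms4a1, a surface protein of mature B cells that plasma cells lose, gave 220.2, 369, 418 and 606 in controls 1–4 and 1516, 3551, 655 and 324 in Gen-treated mice 1–4, a difference of 1.45 ± 0.70 that was not called (limma adjusted p = 0.223). Mouse 4 lay below 3 of the 4 controls, and mouse 2 was far above every other. A second Ms4a1 probe ranked the Gen-treated mice in the same order (62.3, 146, 147 and 201 in controls 1–4 and 468, 1138, 211 and 111 in Gen-treated mice 1–4).

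Cd22, an inhibitory receptor of B cells, gave 44.8, 109.6, 103 and 129 in controls 1–4 and 279, 495, 133 and 90.5 in Gen-treated mice 1–4, with mice 1 and 2 above all controls, mouse 3 just above and mouse 4 below 3 of them. Its difference of 1.17 ± 0.56 was not called (limma adjusted p = 0.222), nor was it at 0.74 without Gen-treated mouse 2. A dimmer Cd22 probe, above background in 0 controls and 1 Gen-treated mouse, went the other way and was not called (-0.39 ± 0.48, limma adjusted p = 0.645). Cd37, a membrane organizer of B cells, depended on the probe. The brighter gave 54.1, 75.7, 523 and 82.4 in controls 1–4 and 128, 246, 95.8 and 115 in Gen-treated mice 1–4, a difference of 0.24 ± 0.69 set by control 3, and the other, 47.3, 70.9, 73.3 and 82.6 in controls 1–4 and 133, 210.3, 84.2 and 85.3 in Gen-treated mice 1–4, gave 0.83 ± 0.32 with no overlap (limma adjusted p = 0.854 and 0.135). Blnk, the adaptor that links the B cell receptor to its kinases, gave 41242, 36467, 36936 and 39092 in controls 1–4 and 40989, 46312, 47242 and 50893 in Gen-treated mice 1–4. It differed by 0.27 ± 0.11 (limma adjusted p = 0.161), with control 1 just above Gen-treated mouse 1. The Blnk signal was far above those of Cd79a and Cd79b, and the part of it that came from B cells was not tested.

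**Figure D3:**
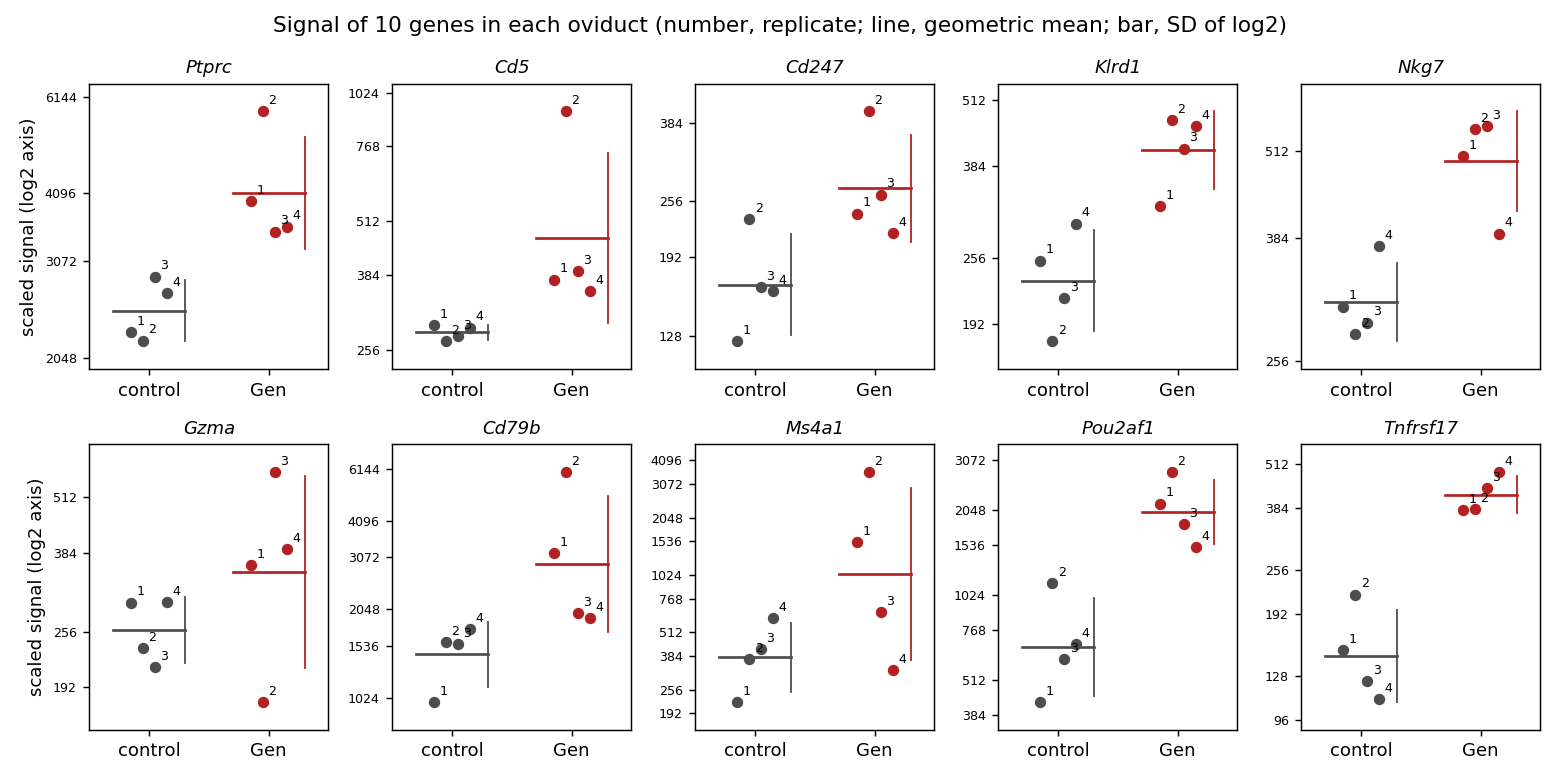
Scaled signal on a log2 axis of 10 genes in each oviduct, controls on the left and Gen-treated mice on the right of each panel (points, mice numbered by replicate; line, geometric mean; bar, SD of the log2 signals, n = 4). Tnfrsf17 and Pou2af1 are apart in all mice, Ms4a1 and Cd79b are led by mice 1 and 2, and Gzma by mouse 3. Cd247, Ms4a1 and Gzma were added to the genes named by the rule after their values were seen.

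Between mice, T cell and B lineage genes peaked in the same mouse and most NK and cytotoxic genes in another. Gen-treated mouse 2 was the highest of all 8 arrays for 11 of the 14 T cell genes and 5 of the 8 B lineage genes, and mouse 3 for 5 of the 7 NK and cytotoxic genes above background on any array. Averaged over the well-detected genes as log2 signal minus the control mean, the B lineage stood at 1.16, 1.79, 0.70 and 0.50 in Gen-treated mice 1–4, against -0.56 to 0.31 in controls. T cell genes, the chromosome 5 probe of Cd8b1 left out after its values were seen, stood at 0.42, 0.99, 0.19 and -0.06, and the controls at -0.12 to 0.20, so that Gen-treated mice 3 and 4 were within the control range. NK and cytotoxic genes stood at 0.44, 0.32, 1.09 and 0.58, and the controls at -0.21 to 0.29, with every Gen-treated mouse above every control. Ptprc was likewise highest in mice 2 and 1, at 0.66, 1.21, 0.48 and 0.51 in mice 1–4.

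**Figure D4:**
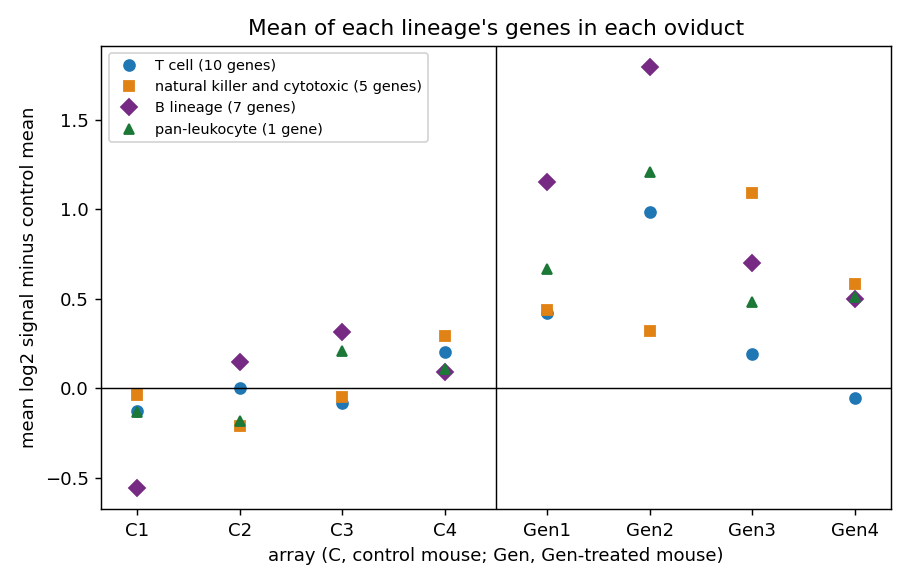
Mean over each lineage's well-detected genes of the log2 signal minus the control mean of the gene, for each of the 8 arrays (circles, 10 T cell genes; squares, 5 NK and cytotoxic genes; diamonds, 7 B lineage genes; triangles, Ptprc). Gen 2 is highest for the T cell genes (0.99) and the B lineage (1.79) and Gen 3 for the NK genes (1.09), with no test made across lineages.

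The rest of each pathway, from lists of related genes, held a few called genes in each lineage. Beside the counts in this and the following lists stand the shares of all probes called, 2.17% higher and 14% lower. With dim probes left out the share called higher was 0.604%. Of 25 T cell receptor pathway genes limma called 5 higher and 2 lower (7 higher at an unadjusted p under 0.05), and 0 higher with dim probes left out. The 15 well-detected ones had a median difference of 0.38, and those called higher included the kinase Txk (1.06 ± 0.30; limma adjusted p = 0.0449, or 0.111 with dim probes left out) and the adaptors Grap2 (0.95 ± 0.23; 0.0272, or 0.0826) and Fyb (0.54 ± 0.12), each without overlap between the groups. Fyb gave 1764, 1889, 2203 and 2134 in controls 1–4 and 2938, 3117, 2710 and 2814 in Gen-treated mice 1–4, with a limma adjusted p = 0.0236, or 0.058 with dim probes left out. Ptpn22, a phosphatase that restrains the receptor, had the strongest signal in that list, 18583 in controls against 15750 in Gen-treated mice, with a difference of -0.24 ± 0.32. The part of the Ptpn22 signal that came from T cells was not tested. The 2 called lower, Ctla4 and Cd40lg, were above background on no array. Gen-treated mouse 2 was the highest array for 17 of the 22 genes above background on any.

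Of 26 related NK and effector genes limma called 5 higher and 1 lower, and 1 higher, Sh2d1a, with dim probes left out. The well-detected 9 had a median difference of 0.59. Gen-treated mouse 2 was the highest array for 10 of the 23 of these genes above background on any, mouse 1 for 6 and mouse 3 for 3, and the mean of the well-detected ones was 0.65, 0.48, 0.43 and 0.04 in Gen-treated mice 1–4, so the peak of the 8 NK and cytotoxic genes in mouse 3 was not seen in the related list. Tbx21, the transcription factor that NK and type 1 helper T cells share, gave 179, 167, 195 and 242 in controls 1–4 and 306, 421, 364 and 238 in Gen-treated mice 1–4, a difference of 0.75 ± 0.20 (limma adjusted p = 0.0416, or 0.103 with dim probes left out). Ccl5, a chemokine of effector lymphocytes, gave 1990, 1849, 2471 and 2245 in controls 1–4 and 3136, 4133, 3178 and 2664 in Gen-treated mice 1–4, without overlap and with a difference of 0.61 ± 0.17 (limma adjusted p = 0.0408, or 0.1 with dim probes left out). Sh2d1a, an adaptor of the receptors by which T cells help B cells, was above background in no control and in all Gen-treated mice, and was at least 1.78-fold higher (limma adjusted p = 0.0236, or 0.0367 with dim probes left out). The bright gene Cd244, an NK receptor, differed by -0.31 ± 0.19 and was not called, and the 1 called lower, Gzmf, was above background on no array.

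Of 27 related B lineage genes limma called 5 higher and 0 lower (11 and 1 at an unadjusted p under 0.05), and 3 higher with dim probes left out (Mzb1, Fcrla and Irf4). Mzb1, a chaperone of the endoplasmic reticulum in plasma and marginal zone B cells, gave 567, 1044, 628 and 786 in controls 1–4 and 1783, 1688, 1963 and 2043 in Gen-treated mice 1–4. Like Tnfrsf17 it was high in all 4 Gen-treated mice without overlap, with a difference of 1.34 ± 0.20 (limma adjusted p = 0.0236, or 0.0274 with dim probes left out). Irf4, a factor that plasma cells need, gave 47.2, 52.9, 47.4 and 48.9 in controls 1–4 and 69.8, 105, 85.9 and 96.8 in Gen-treated mice 1–4 and differed by 0.85 ± 0.15 (limma adjusted p = 0.0236, or 0.0391 with dim probes left out). Fcrla, an intracellular protein of B cells, gave 31.8, 34.8, 43.1 and 54.6 in controls 1–4 and 118, 263, 113 and 129 in Gen-treated mice 1–4, and Pax5, the factor that fixes the B cell fate, gave 50.5, 76.3, 48.9 and 64.9 in controls 1–4 and 141, 275, 94.8 and 109.5 in Gen-treated mice 1–4. Both were highest in Gen-treated mouse 2 and had no overlap, with differences of 1.86 ± 0.30 (limma adjusted p = 0.0236, or 0.0378 with dim probes left out) and 1.26 ± 0.33 (limma adjusted p = 0.0368, or 0.1). Of the 4 controls, Fcrla was well above background in 1, and Irf4 and Pax5 in 3, and all were so in every Gen-treated mouse. The control mean of Fcrla thus rests largely on undetected signals. Cd38, an enzyme on activated lymphocytes, rose by 0.84 ± 0.20 (limma adjusted p = 0.0272, or 0.0819 with dim probes left out). Vpreb3, which gave the strongest signal in the list, differed by -0.05 ± 0.21, and the part of that signal from B cells was not tested. Xbp1, which plasma cells share with other secretory cells, differed by 0.24 ± 0.14. The plasma cell genes Prdm1 and Sdc1 were well detected and had lower mean signals in Gen-treated mice. Their differences of -0.13 ± 0.16 and -0.20 ± 0.21 were not called. Over the 20 well-detected genes the median difference was 0.32.

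Markers of other cells were read beside these genes. Of 15 macrophage and dendritic cell genes, all 15 well detected, limma called Adgre1 (0.66 ± 0.15) and Itgam (0.74 ± 0.13) higher and 0 lower (5 and 0 at an unadjusted p under 0.05). With dim probes left out Itgam was still called (limma adjusted p = 0.0412) and Adgre1 was not (0.0699). Gen-treated mouse 2, the peak of the T cell and B lineage genes, was also the highest array for 12 of the 15, and the mean over all 15 was 0.05, 0.66, 0.08 and 0.32 in Gen-treated mice 1–4. The median difference of the 15 was 0.40, and their summed signal was 159606–236336 in controls and 214177–291142 in Gen-treated mice. Of 7 ovarian steroidogenic genes limma called 4 higher (Cyp11a1, Hsd3b1, Cyp19a1 and Lhcgr; 5 at an unadjusted p under 0.05), and 0 with dim probes left out, and the summed signal of the 4 well-detected ones was 3341–28178 in controls and 29873–130806 in Gen-treated mice. On average those 4 stood at 3.46, 3.18, 1.61 and 2.15 in Gen-treated mice 1–4 and at 1.79 in control 3, the highest control, with no marker at 0. Gen-treated mice 1 and 2, which led the mature B cell genes, were thus also the highest in ovarian genes, and the part of ovarian or other tissue in the lymphocyte signals was not tested.

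The defining markers of oviduct epithelium were well above background on all 8 arrays, and Ovgp1, the oviductal glycoprotein, and Krt18, an epithelial keratin, differed by 0.06 ± 0.17 and 0.01 ± 0.16. Limma called 0 of 7 epithelial, 0 of 6 smooth muscle, 0 of 8 endothelial, 0 of 6 fat and 0 of 6 red blood cell genes higher or lower, and 1, 0, 1, 1 and 1 of these had an unadjusted p under 0.05. The mean of the well-detected endothelial genes was -0.0035, 0.48, -0.03 and 0.20 in Gen-treated mice 1–4, and that of the epithelial genes 0.05, -0.26, -0.11 and 0.12. Mouse 2 was thus the highest of all 8 arrays for endothelium and the lowest for epithelium. Red cell genes, a measure of blood left in the tissue, had a median difference of 0.63 over 4 well-detected genes, with hemoglobin genes Hba-a1 and Hbb-b1 at 0.62 ± 0.26 and 0.53 ± 0.27. The mean of the red cell list was highest in Gen-treated mice 4 and 1 (1.16 and 1.00) and lower in mouse 2 (0.57), the mouse with the highest mean T cell and B lineage signals. Of 9 neutrophil genes limma called 0 higher (0 at an unadjusted p under 0.05) and 1 lower, Elane, which was above background on no array. Of the 5 that were well detected 4 were higher, and the median difference of the 5 was 0.67. Their mean was highest in control 3 (1.23), with Gen-treated mice 1–4 at -0.06, 0.56, 1.09 and 0.92. The part of blood in the lymphocyte signals was not tested.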

How the data were processed

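Oviduct RNA of 8 CD-1 mice, 4 control and 4 Gen-treated, was measured on 1 single-dye Agilent array per mouse. The deposited intensity values are processed signals of Agilent Feature Extraction 9.5, adjusted for background and for trends within the array by the authors' software and not scaled between arrays. A deposited table of the whole series held the same intensity values in all 45018 spots, and the authors' later steps in Rosetta Resolver were not applied here. The 1639 control spots and outlier spots were dropped, log2 values were averaged over a probe's spots, and then the 75th percentiles of all arrays were set equal. These log2 values were computed from the deposited intensities.

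Groups came from the sample labels and were compared with limma 3.58.1 (lmFit and eBayes) in R 4.3.3 with data.table (version 1.17.8), with Benjamini-Hochberg adjustment over 41173 probes, and plots were drawn with matplotlib 3.10.9. A gene was represented by its probe with the highest mean log2 signal, and a probe was well above background where at least 0.5 of its spots were flagged so. A gene with no such array in a group was given as a bound. All 31 genes are accounted for. Those given mouse by mouse by rule were the called genes, the genes whose groups did not overlap and the brightest of each lineage. Related genes were named where called and well above background on all 8 arrays (at most 4 a list) or brightest. Markers of other cells were named where called. The 2 brightest were named in the epithelium and red cell lists, and not all of them in the other marker lists, though the plan had them named. Other genes were added after their values were seen, and 1 related gene that met the rule is not reported here.

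The members and lists were chosen with earlier results of these data known. Members matched by the gene name in the files. Related genes were named through tables of GRCm38.p6 by RefSeq accession (22951 probes of the array) or by name (9768), and 8455 kept the name in the files. Under updated names 1 more probe would belong to a member and was not used. The array design gives probe positions on NCBI build 35 (mm7). The steps were tested on simulated data. Alternatives were, for scaling, quantile normalization or none, for background, normexp (offset 50), for dim probes, 2 filters (detection on every array of 1 group, or on at least 4 of 8 arrays) or a floor at a signal of 76.6, for the test, a robust fit with an intensity trend, the methods' t-test or the replicate block, and further the outlier spots retained, the table of the whole series, the mean over a gene's probes, each array left out in turn, and, chosen after seeing the data, the chromosome 6 probe of Cd8b1. The number of arrays limits the precision: 4 against 4 cannot give an exact 2-sided permutation p below 0.0286. The comparison of paired genes within an array (Cd8a with Cd4, Cd79a with Cd3e, Ncr1 with Cd3e) was planned only for genes detected on all 8 arrays, which no pair met.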

Additional observations from a re-analysis of the deposited data

Results flagged for a closer look

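In 2 of the 53 groups of 4 mice in which a gene was well above background on every array, the highest mouse stood apart from the others, its gap to the nearest of them divided by the range of the group being above the critical value of Dixon's test, and chance alone gives this in about 1 in 20 groups. For Cd8a in Gen-treated mice the ratio was 0.963, with mouse 2 at 90.3 and the next mouse at 42.8. For Cd5 in Gen-treated mice it was 0.891, with mouse 2 again the highest, at 927 against 391 in the next.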

How the results depend on the processing

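The median differences of the 3 lineages kept their sign under every alternative run and ranged from 0.18 to 0.53 for T cell genes, 0.40 to 0.91 for NK genes and 0.74 to 1.45 for the B lineage. Without scaling the median of all well-detected probes was 0.24 in place of -0.01, and relative to it the lineage medians were as reported. The counts of calls were less stable. The 7 members called higher and 2 called lower became 0 and 0 with quantile normalization, with a floor and with the methods' t-test (0 in each lineage; 13, 10 and 12 higher at an unadjusted p under 0.05), 1 and 0 with either filter on dim probes (T cell 0, NK 0, B lineage 1), 3 and 0 without scaling (NK 0), and 2 and 0 with normexp (T cell 0, NK 0). With the mean over a gene's probes, or with the chromosome 6 probe of Cd8b1, 1 was called lower. For the related lists of T cell, NK and B lineage genes, the 5, 5 and 5 genes called higher became 1, 0 and 1 with quantile normalization, 0, 1 and 3 without scaling, 0, 0 and 1 with normexp and 0, 1 and 3 with dim probes left out. With 1 array left out, members called higher ranged from 0 to 6 and lower from 0 to 2 (higher: T cell 0 to 1, NK 0 to 3, B lineage 0 to 2), and the related lists from 0 to 3, 0 to 6 and 0 to 6. The replicate block, which pairs mice of the same number, called 0 members higher or lower (0 in each lineage, 12 higher at an unadjusted p under 0.05). Correlations of same-numbered mice were -0.08, 0.11, -0.02 and -0.18, and no same-numbered mice were each other's best match. These correlations cannot exclude that the numbers follow litters, so whether they pair the mice is not known. Single genes turned direction as follows. Cd3e was 0.23 without scaling, which shifted all genes alike (the median of well-detected probes was 0.24), and -0.15 to 0.10 with 1 mouse left out (0.10, 0.02, 0.08 and 0.05 without control 2, control 4, Gen-treated mouse 3 and Gen-treated mouse 4). Cd37 was -0.0055 with normexp and -0.12 to 0.97 with 1 mouse left out (-0.12 without control 1 and -0.04 without Gen-treated mouse 2). Lck was -0.064 to 0.19 with 1 mouse left out, the lowest without Gen-treated mouse 2. Zap70 was -0.049 with normexp and Gzmk 0.047 with quantile normalization. With the mean over a gene's probes Cd8b1 was 0.33 and Cd247 -0.69, and by its chromosome 6 probe Cd8b1 was 1.13. The causes were not tested.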
